A study of Schizosaccharomyces pombe with 21 samples.

Results

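Of 6988 genes listed for phosphate-starved *ecl123*Δ fission yeast, 18 had means of at most 1.5 times their starting level at 4 h and 8 h and of at least 2 times that level from 24 h on. They were chosen by the authors' mean normalised counts themselves. A gene entered when its ID held no "RNA", its 4 h and 8 h means were each at most 1.5 times the 0 h mean, and its 24 h, 36 h and 48 h means were each at least 2 times the 0 h mean and at least 100. There was no lower early limit, and the ratio to 0 h ranged from 0.586 to 1.45 at 4 h and from 0.63 to 1.47 at 8 h. The rule set aside 4 genes by name, 1 of which met these limits. All 18 genes are classed as protein-coding, 12 have a gene symbol, and 4 are annotated only as uncharacterized protein. Poly(A)+ RNA came from 21 samples of a single mating-type h- strain, ASY136, which is deleted for the ecl genes as ecl1∆::hygMX ecl2∆::natMX ecl3∆::kanMX. Like the study's other strains it also carries leu1-32, ura4-D18, his3-D1 and 1 of 2 ade6 alleles. At 0 h cells were in log phase in YES, a rich medium made from yeast extract. At the 6 later times (4 to 48 h) the same strain had been starved in ePMGT(-PO4), a defined glutamate medium lacking phosphate. Each of the 7 times has 3 samples labelled as biological replicates. Every sample carries the triple deletion and none is wild type, so what the loss of the Ecl proteins contributes cannot be told apart. Each comparison with 0 h also joins the loss of phosphate to the change of medium.

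Fission yeast deprived of phosphate switches on genes that scavenge and import phosphate, in part through the transcription factor Pho7. Ribosome production is turned down, autophagy is turned up, growth slows, and the cells stop dividing and settle into quiescence. In quiescence the cell lives on internal stores and its wall, membranes and protein synthesis are adjusted to arrest. The Ecl proteins are small proteins known for extending the chronological lifespan of such non-dividing cells.

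The tables give 1 mean per gene and time, so the values below are the authors' means and are given without an error. The authors' errors of their own fold changes against 0 h were not used. The rule used the 0, 4, 8, 24, 36 and 48 h means, and ratios among them describe the genes without testing anything. The 12 h mean was not used by the rule, but its ratio shares the 0 h mean. Summed means were between 20331900 and 27176600 per time, and size factors recovered from the lowest means ran from 0.804 to 1.32 over the 21 libraries. A normalised count is relative to the rest of the RNA in a library, so more RNA per cell and more cells with the RNA cannot be told apart. The median protein-coding gene moved by -0.04 to -0.22 on the log2 scale against 0 h, depending on the time. With each time recentred on that gene, 14 of the 18 stayed within the rule, and SPBC336.16, *dpm1*, SPBC337.02c and SPBC428.12c passed the early limit. Libraries of 24 h differed from each other more than those of other times. Among protein-coding genes with a mean of 100 to 200, the highest of the 3 libraries was a median of 1.69 times the lowest at 24 h and 1.24 to 1.33 times at the other times. How much of a late ratio rests on this spread was not tested for most of the 18 genes. With 24 h left out of the rule, 17 further genes qualified beside the 18.

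Among the 18 genes, 3 share long stretches of identical sequence. SPCC569.01c and SPCP20C8.01c on chromosome III and SPBC337.02c on chromosome II all encode uncharacterized proteins. In the RefSeq genome of assembly ASM294v3, 86.0% of the 50-base stretches of SPCC569.01c, 85.6% of those of SPCP20C8.01c and 31.3% of those of SPBC337.02c occur elsewhere in the genome. Not all of these copies lie within these 3 genes. Of the stretches of SPCC569.01c, 46.2% lie within SPCP20C8.01c and 15.1% within SPBC337.02c. None of the other 15 genes has a stretch found elsewhere. The 250 bases before the annotated start are the same at every position in SPCC569.01c and SPCP20C8.01c, and SPBC337.02c differs from both at 1 position. The stretch from 140 to 41 bases before the start is shown on the coding strand because it holds the position at which they differ. Capitals mark GTAAACA, the core that forkhead transcription factors bind.
SPCC569.01c: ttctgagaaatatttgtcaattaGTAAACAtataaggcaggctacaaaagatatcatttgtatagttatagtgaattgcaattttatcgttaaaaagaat
SPCP20C8.01c: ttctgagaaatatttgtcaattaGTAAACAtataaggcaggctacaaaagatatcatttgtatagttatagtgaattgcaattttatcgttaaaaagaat
SPBC337.02c: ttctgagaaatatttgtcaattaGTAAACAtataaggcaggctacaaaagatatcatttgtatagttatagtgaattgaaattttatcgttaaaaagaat
The difference is C79A, with SPCC569.01c named first and positions counted from the 5′ end of the stretch shown.

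All 3 sequence-sharing genes were below their starting level at 4 h and above it at 12 h. SPCC569.01c had mean normalised counts of 687 at 0 h, 483 at 4 h, 865 at 8 h, 1382 at 12 h, 2318 at 24 h, 2255 at 36 h and 2584 at 48 h. SPCP20C8.01c had 611 at 0 h, 358 at 4 h, 540.1 at 8 h, 797 at 12 h, 1229 at 24 h, 1259 at 36 h and 1490.1 at 48 h. SPBC337.02c had 2776 at 0 h, 2219 at 4 h, 3811 at 8 h, 4540.4 at 12 h, 5564 at 24 h, 5589 at 36 h and 6016 at 48 h. At 4 h they stood at 0.586 to 0.799 times 0 h and at 24 h at 2.0 to 3.37 times. Reads that match more than 1 of them, or a copy elsewhere in the genome, could have been dropped or counted at another place. The level of each is therefore uncertain, and how far their courses rest on the same reads was not tested. Their summed mean does not depend on how counted reads were divided among the 3, but may still lack or hold reads of copies elsewhere. It went from 4075 at 0 h to 3059.8 at 4 h and 10090.0 at 48 h. SPCC569.03, another uncharacterized gene that shares stretches with all 3, did not dip. It was already at 2.11 times 0 h at 4 h and reached 5.23 times at 48 h, from 821 to 4290.3 normalised counts.

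**Figure D1:**
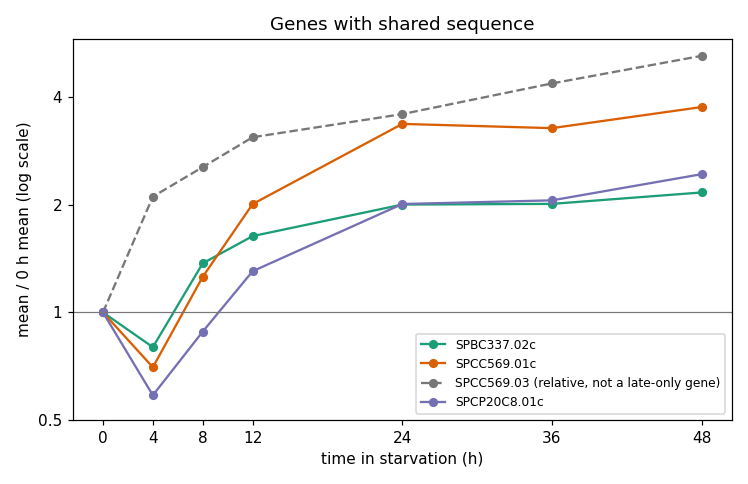
Ratio of the authors' mean normalised count to the 0 h mean (log scale) against time in starvation (h) for the 3 late-only genes with shared sequence (solid lines) and SPCC569.03 (dashed). The solid lines dip to 0.586 to 0.799 at 4 h and lie at or above 2.0 from 24 h, while SPCC569.03 is at 2.11 at 4 h.

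At 12 h, the time the rule left free, 17 of the 18 genes were above 0 h, 12 were at least 1.5 times it and 3 were at least 2 times it. The background among the 4896 genes whose ID holds no "RNA" and whose late means are at least 100 is 43.2% above 0 h, 24.9% at 1.5 times and 16.3% at 2 times. Among all 6459 genes with a 0 h mean of at least 1 it is 50.7%, 33.2% and 23.5%. The count of 3 of 18 is close to the background, while the counts of 17 and 12 are above it and share the 0 h mean with the rule. The 12 h mean lay between the 8 h and the 24 h mean in 18 of 18 genes. The rule itself set a gap between those means, at most 1.5 times 0 h at 8 h and at least 2 times at 24 h. A 12 h mean between them was therefore favoured by the choice, and nothing is read from that count. The median ratio to 0 h went from 0.974 at 4 h and 1.27 at 8 h to 1.57 at 12 h, 2.14 at 24 h, 2.91 at 36 h and 2.57 at 48 h. The median log2 ratio at 12 h was 0.65, against 0.02 over all genes and -0.16 over protein-coding genes. The limits at 8 h and 24 h favoured a positive value here too, so nothing is read from this difference. Late ratios of at least 2 with means of at least 100 were common, at 14.3% of 5069 genes whose ID holds no "RNA". Of 724 such genes, 705 had already passed 1.5 times 0 h at 4 h or 8 h. This contrast chose the 18 genes, so nothing is read from that share.

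**Figure D2:**
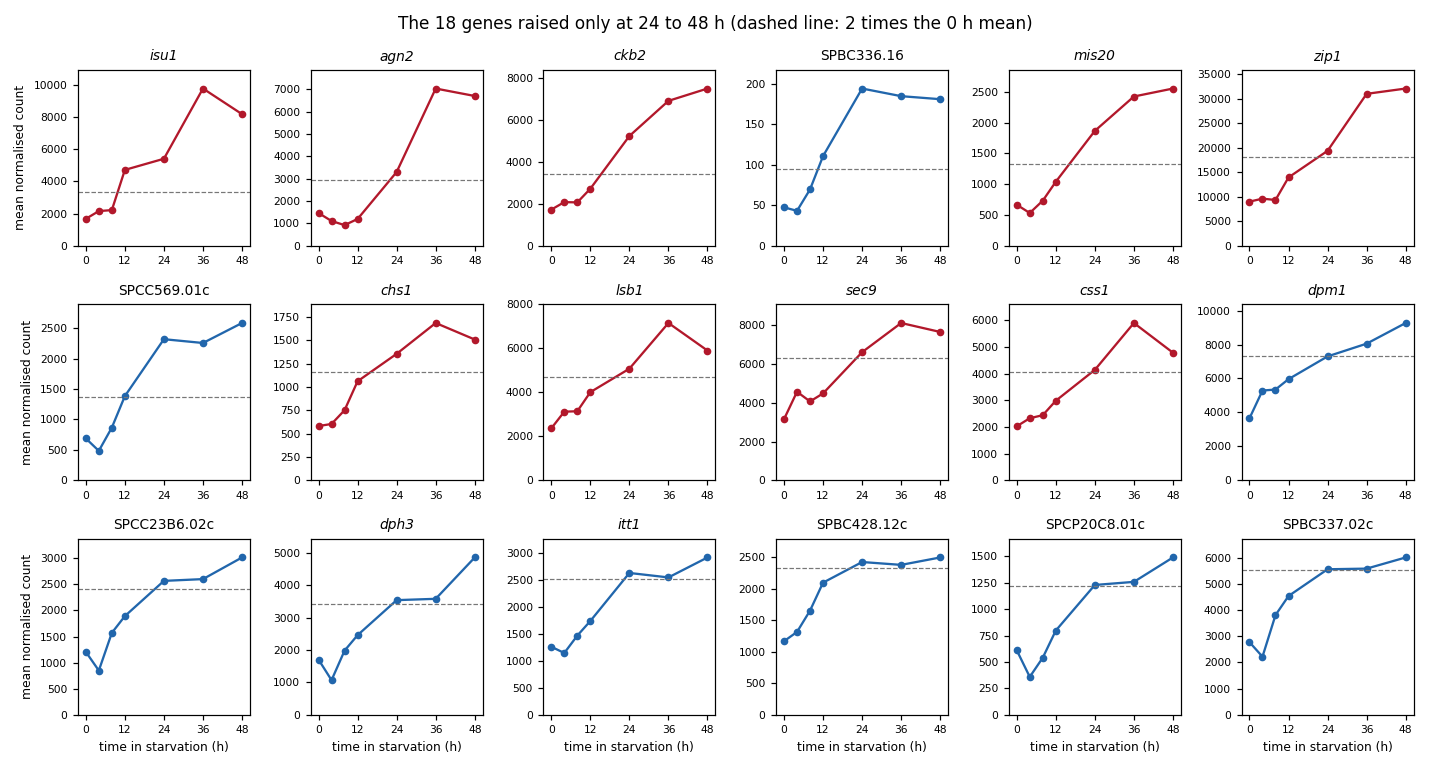
Mean normalised count (authors' means, linear axes from 0) against time in starvation (h) for each of the 18 genes, in order of their median late ratio, with a dashed line at 2 times the 0 h mean. Red marks the 9 genes whose 36 h mean was at least 1.2 times the 24 h mean and blue the other 9, and all 18 lines lie above the dashed line from 24 h.

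After 24 h the genes took different courses. In 9 genes the 36 h mean was 1.23 to 2.13 times the 24 h mean (*isu1*, *agn2*, *ckb2*, *mis20*, *zip1*, *chs1*, *lsb1*, *sec9* and *css1*). In the other 9 it was 0.951 to 1.1 times. The limit of 1.2 was placed in the gap between these ranges after the values were seen. The 9 genes below it include all 3 sequence-sharing genes. Over all 6614 genes with a 24 h mean of at least 1, 16.1% had a 36 h mean at least 1.2 times the 24 h mean. Over the whole late period, 17 of 18 genes had a higher mean at 48 h than at 24 h, where the background is 49.0%. The 48 h mean was at least 1.5 times the 24 h mean in 3 of 18, *agn2* (1.02 on the log2 scale), *zip1* (1.66 times) and *isu1* (1.51 times), where the background is 5.14%. The reverse, a 24 h mean at least 1.5 times the 48 h mean, was found in 0 of 18, where the background is 6.99%. The 24 h, 36 h and 48 h means all chose the genes, so nothing is read from these shares, and the 24 h libraries spread most.

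*isu1* (SPAC227.13c), which encodes the scaffold on which mitochondria build iron-sulfur clusters, had the largest late ratio. Its mean normalised counts were 1670.5 at 0 h, 2151 at 4 h, 2212 at 8 h, 4707 at 12 h, 5398 at 24 h, 9754 at 36 h and 8165 at 48 h. The level was nearly flat from 4 h to 8 h, was at 12 h 2.13 times its 8 h level, and climbed a second time by 1.81 times between 24 h and 36 h. The log2 ratio to 0 h was 1.49 at 12 h and 2.55 at 36 h. Other genes of the same pathway were gathered after the 18 genes were known, as were all partner genes below. *isa1* and *isa2*, needed for the later steps that make 4Fe-4S clusters, were also higher than at 0 h. Both were over 1.5 times 0 h at 8 h, a level the rule did not allow *isu1*. *isa1* went from 3229.7 at 0 h to 5678 at 8 h and 8421 at 48 h. *isa2* was already at 1359 at 4 h, from 653 at 0 h. *nfs1*, the cysteine desulfurase that supplies the sulfur, was below its start at 8 h and above it at 48 h, with 7876 at 0 h, 3529 at 8 h and 10344 at 48 h. *ssc1*, the mitochondrial Hsp70 chaperone that helps to release the finished cluster, was at 81913 at 0 h and 23452 at 48 h. None of the other pathway genes gathered was at 1.5 times 0 h at 24, 36 or 48 h. At these times *jac1* was at 1.23 to 1.46 times, *isd11* at 1.19 to 1.31 and *grx5* at 1.08 to 1.23. *iba57* was at 0.962 to 1.08 times, *arh1* at 0.678 to 0.717 and *etp1* at 0.44 to 0.713. The scaffold, the sulfur donor and the chaperone thus had different courses.

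Both enzymes of cell wall polysaccharides among the 18 had a relative whose late means were below 0 h. *agn2* (SPBC646.06c) encodes an endo-1,3-alpha-glucanase that digests the ascus wall to set spores free. Its counts were 1465 at 0 h, 1106 at 4 h, 924 at 8 h, 1198 at 12 h, 3299.7 at 24 h, 7032 at 36 h and 6698 at 48 h. At 12 h it was the 1 gene of the 18 still below 0 h, at 0.817 times, and it stood at 4.80 times at 36 h. *agn1*, the alpha-glucanase that separates daughter cells after division, had 3187 at 0 h, 3849 at 4 h, 3499 at 8 h, 2683 at 12 h, 677 at 24 h, 559.7 at 36 h and 507 at 48 h. Thus *agn1* was at 0.159 times its 0 h mean at 48 h and *agn2* at 4.57 times. *chs1* (SPAC13G6.12c), a chitin synthase, had 581 at 0 h, 603 at 4 h, 751 at 8 h, 1061 at 12 h, 1355 at 24 h, 1685 at 36 h and 1508 at 48 h. *chs2*, a chitin synthase-like gene, was at 457 at 0 h, 598 at 12 h and 245 at 48 h. Of the alpha-glucan synthase genes, the main cell wall gene *mok1* was at 10683 at 0 h and 3692 at 48 h, and *mok12*, which acts in the spore wall, stayed between 1030.3 at 0 h and 1290.3 at 8 h.

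The regulators among the 18 were *ckb2*, *zip1* and *itt1*. *ckb2* (SPBC2G5.02c) encodes a regulatory subunit of casein kinase 2, a kinase of broad function made of catalytic and regulatory subunits. Its counts were 1721 at 0 h, 2079.7 at 4 h, 2066 at 8 h, 2716 at 12 h, 5228 at 24 h, 6903 at 36 h and 7490.2 at 48 h. Its late ratios of 3.04 to 4.35 were not shared by the other subunits. *ckb1*, the other regulatory subunit, went from 4025 at 0 h to 4389 at 48 h, and *cka1*, the catalytic subunit, from 7968 to 5549.9. At 48 h the ratio to 0 h was 4.35 for *ckb2*, 1.09 for *ckb1* and 0.696 for *cka1*.

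*zip1* (SPAC25G10.03), a bZIP transcription factor of the cadmium response, had the highest level of the 18 per kb of exon at 0 h and 48 h. Its mean normalised counts were 8999 at 0 h, 9603 at 4 h, 9338 at 8 h, 13933 at 12 h, 19359 at 24 h, 30977 at 36 h and 32057 at 48 h. The level was within 1.07 times of 0 h at 4 h and 8 h, and climbed by 1.49 times to 12 h and by 1.6 times from 24 h to 36 h. Zip1 protein is removed by an SCF ubiquitin ligase with the F-box protein Pof1. *pof1* stayed between 1448 at 12 h and 1710.3 at 36 h, from 1557 at 0 h. The cullin gene *pcu1* was higher from 4 h on and near its start again at 48 h, with 1496 at 0 h, 2704 at 4 h, 2501 at 8 h, 2539 at 12 h, 2427 at 24 h, 2286 at 36 h and 1653 at 48 h. *itt1* (SPAC1002.14), annotated as an E3 ubiquitin-protein ligase, had 1261 at 0 h, 1144 at 4 h, 1467 at 8 h, 1738 at 12 h, 2629 at 24 h, 2546 at 36 h and 2917 at 48 h. In the annotation *itt1* lies wholly within *med6* on the opposite strand. *med6*, a subunit of the Mediator complex, had 1322 at 0 h and 799.6 at 48 h, so its 48 h mean was below its 0 h mean. The libraries were strand-specific, but whether HTSeq took account of strand is unknown here, so the reads of *itt1* and *med6* may be mixed.

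*mis20* (SPBC776.16) encodes a subunit of the Mis18 complex, which helps to recruit the centromeric histone CENP-A. Its counts were 666 at 0 h, 532 at 4 h, 732 at 8 h, 1039 at 12 h, 1865 at 24 h, 2422 at 36 h and 2552 at 48 h. It dipped at 4 h and passed 2 times 0 h between 12 h and 24 h. The other subunits stayed nearer to their start. *mis18* was at 302 at 0 h, 555 at its highest at 24 h and 480.5 at 48 h, *mis19* at 535 and 513, and *mis16*, which is also a general histone chaperone, at 2513 and 1696. At 48 h the *mis20* ratio to 0 h was 3.83 and that of *mis18*, the next highest, 1.59.

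A further 4 genes act in secretion, membrane lipids and the cell cortex, and all 4 were above 0 h at every later time. *sec9* (SPBC26H8.02c), a SNARE protein by which secretory vesicles fuse with the plasma membrane, had 3151 at 0 h, 4569.9 at 4 h, 4069 at 8 h, 4485 at 12 h, 6615 at 24 h, 8122 at 36 h and 7658 at 48 h. Its partner at the plasma membrane, *psy1*, went from 5682 at 0 h to 2956 at 48 h, and the vesicle SNARE *syb1* from 9301 to 7497. *dpm1* (SPAC31G5.16c), the catalytic subunit of the synthase that makes dolichol phosphate mannose, the mannose donor for protein glycosylation and GPI anchors, had 3648 at 0 h, 5286 at 4 h, 5346 at 8 h, 5958 at 12 h, 7299 at 24 h, 8050.4 at 36 h and 9268 at 48 h. Here the partner genes moved in the same direction. *dpm2* went from 373 at 0 h to 981 at 8 h and 1072 at 48 h, and *dpm3* from 1759 to 5005 and 8006. At 8 h *dpm1* stood at 1.47 times 0 h, *dpm2* at 2.63 and *dpm3* at 2.85. The long *dpm1* transcript model is overlapped over 79.6% of its length by *psd3*, a phosphatidylserine decarboxylase gene on the opposite strand, which had 905 at 0 h, 1406 at 8 h and 988 at 48 h.

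*css1* (SPBC32F12.01c), the phospholipase C that cleaves inositol phosphosphingolipids to ceramide, had 2023 at 0 h, 2327 at 4 h, 2441 at 8 h, 2982 at 12 h, 4141 at 24 h, 5899.6 at 36 h and 4785 at 48 h. *lsb1* (SPBC119.05c), an SH3 domain protein, had 2359.8 at 0 h, 3121 at 4 h, 3140.0 at 8 h, 4009 at 12 h, 5077 at 24 h, 7158 at 36 h and 5902 at 48 h. Both time courses had the same outline, a small step to 4 h, a plateau to 8 h, a climb to a peak at 36 h and a 48 h mean of 0.811 times the 36 h mean for *css1* and 0.825 times for *lsb1*.

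**Figure D3:**
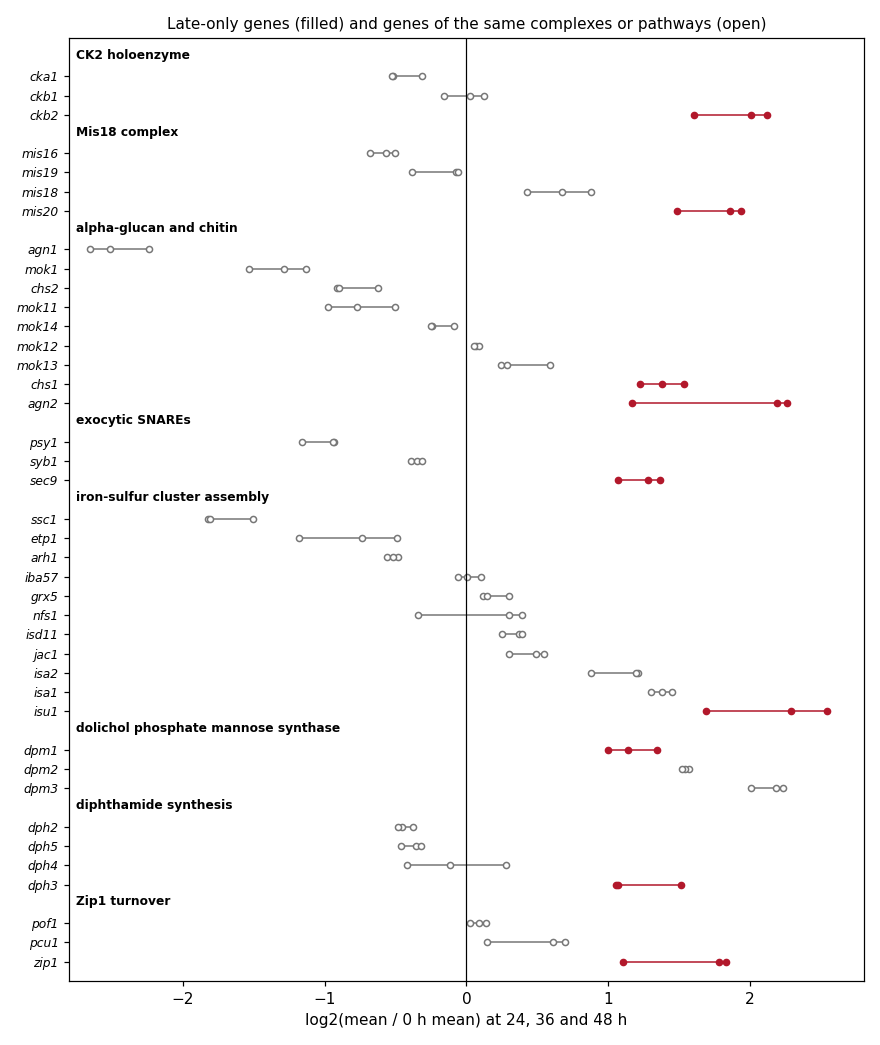
Log2 ratio to the 0 h mean at 24, 36 and 48 h (3 points per gene, joined by a line) for 9 late-only genes (filled red) and 31 genes of the same complexes or pathways (open grey). All points of the filled genes lie at 1 or higher, and of the open genes only *dpm2*, *dpm3* and *isa1* do so at all 3 times.

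A further 3 genes act in translation and protein folding. *dph3* (SPAC8F11.02c), needed for the diphthamide modification of elongation factor 2, had 1702 at 0 h, 1066 at 4 h, 1978 at 8 h, 2456 at 12 h, 3537 at 24 h, 3578 at 36 h and 4855 at 48 h. Of the other diphthamide genes, *dph2*, *dph4* and *dph5* were examined, and none was at 1.5 times 0 h at 24, 36 or 48 h. *dph2* was at 2067 at 0 h, 706 at 4 h and 1589 at 48 h, and *dph5* at 4711, 2701 and 3779, while *dph4* lay between 533 at 36 h and 867 at 24 h. All 4 were lower at 4 h than at 0 h. At 24 h the ratio to 0 h was 2.08 for *dph3*, where the rule required at least 2. That of *dph4*, the next highest, was 1.21. SPCC23B6.02c, annotated as an export factor of the large ribosomal subunit, had 1206 at 0 h, 847 at 4 h, 1569.7 at 8 h, 1891 at 12 h, 2567 at 24 h, 2601 at 36 h and 3017 at 48 h. SPBC428.12c, a peptidyl-prolyl isomerase, had 1165 at 0 h and climbed to 2094 at 12 h and 2421 at 24 h, after which it changed little, to 2494 at 48 h.

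SPBC336.16, an uncharacterized protein of 71 codons and the shortest of the 18, had the lowest level per kb of exon at 0 h and 48 h. Its mean normalised counts were 47.5 at 0 h, 43.2 at 4 h, 69.6 at 8 h, 111 at 12 h, 194 at 24 h, 185 at 36 h and 181 at 48 h. For this gene the means are small enough to be split into whole reads in only 1 way at each time, which gives the 3 libraries without saying which replicate each is. At 0 h the libraries were at 39.9, 43.3 and 59.3 normalised counts, and at 4 h at 34.8, 36.4 and 58.3. At 8 h they were at 62.3, 69.6 and 76.9, and at 12 h at 105.8, 105.8 and 121. The 8 h libraries lay above all those of 0 h, and the 12 h libraries above all those of 8 h. At 24 h they were at 152, 153 and 278, at 36 h at 182, 184 and 189, and at 48 h at 171, 175 and 197. Every library of 24 h, 36 h and 48 h was above every library of the earlier times, while the libraries of 24 h overlapped those of 36 h and 48 h. The rule chose this gene by its means at all times but 12 h. A gap between early and late libraries was therefore favoured by the choice, and nothing is read from it. Without the highest 24 h library the 24 h mean would be 153, or 3.21 times 0 h. The peak at 24 h thus rested on 1 library. For *mis20*, SPCC569.01c, *chs1* and SPCP20C8.01c only the 4 h mean could be split in 1 way, and the highest library was 1.09 to 1.29 times the lowest.

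**Figure D4:**
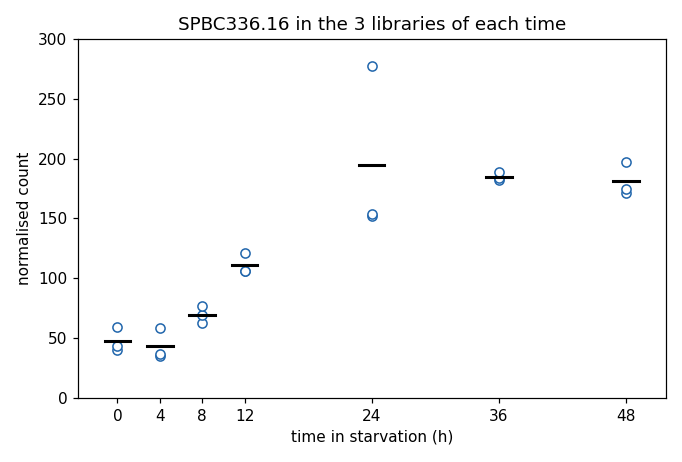
Normalised counts of SPBC336.16 against time in starvation (h), with 3 open circles per time for the libraries and a bar for their mean. At 12 h both lower circles coincide at 105.8. The libraries of 24 h, 36 h and 48 h lie at 152 and above, and those of 0 h to 12 h at 121 and below. The rule chose this gene for a gap between its early and late means.

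Some genes sat close to the limits of the rule. On the early limit of 1.5, the highest ratio at 4 h or 8 h just inside was 1.47 for both SPBC336.16 and *dpm1*, and just outside it was 1.51 for *sec17*, a SNARE disassembly factor, and 1.53 for *osr1*. Between 1.4 and 1.5 lay 4 of the 18 genes, and between 1.5 and 1.6 lay 12 genes that were otherwise within the rule. On the late limit of 2, the lowest late ratio just inside was 2.001 for *dpm1* and 2.004 for SPBC337.02c, and just outside it was 1.999 for *mhf1* and 1.97 for *yta4*. The lowest late ratio was under 2.1 in 8 of the 18.

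With means divided by exon length, the 18 genes held percentiles of 6.46 to 89.5 (median 51.3) among 5111 protein-coding genes at 0 h and of 15.1 to 96.2 (median 82.3) at 48 h. The rule required a 48 h mean of at least 2 times the 0 h mean, so nothing is read from the higher percentiles at 48 h. At 48 h SPBC336.16 alone was below percentile 27.1, that of *chs1*. The highest level at 48 h was that of *zip1*, with 21021 normalised counts per kb of exon, and the lowest that of SPBC336.16, with 313. The gene model of SPBC336.16 is marked partial, so its exon length is uncertain. *isu1* had 5316 and *chs1*, with the longest coding sequence of 859 codons, 495 per kb. The median coding length was 275 codons, against 378 over all protein-coding genes. The genes were spread over chromosomes I (6), II (9) and III (3).

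No single function covered the 18 genes. Of 22 lists matched on symbols and product names, 6 held any of them and 16 held none. The cell wall and surface list held 3 of 18 (*agn2*, *chs1* and *dpm1*), or 16.7%, and 1.62% of all protein-coding genes. The list of uncharacterized genes held 4 of 18, or 22.2%, against 7.36%, and 3 of those 4 are the genes with shared sequence. *zip1* was the transcription factor, *itt1* the ubiquitin gene, *css1* the lipid gene and SPCC23B6.02c the ribosome gene. The meiosis and sporulation list, with 3.66% of all protein-coding genes, held 0 of 18. Of its 187 genes, 68 (36.4%) were at least 2 times 0 h at 24, 36 and 48 h with means of at least 100. The background for this is 14.3%. The autophagy and vacuole list, with 0.92% of all protein-coding genes, held 0 of 18, and 21 of its 47 genes (44.7%) were so raised. With shares this small, nothing is read from either count of 0. Matching on words leaves out genes whose product name does not state the function, such as *agn2* from the meiosis and sporulation list, *isu1* from the mitochondrial list and *sec9* from the membrane traffic list.

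Promoters were searched on both strands for 17 motifs, from 250 bases before to 50 after each annotated gene start in assembly ASM294v3. Counting the shared promoter of SPCC569.01c, SPCP20C8.01c and SPBC337.02c once leaves 16 distinct promoters. The models of these 3 genes and of SPBC336.16 are marked partial. Their annotated starts may therefore not be transcript starts, and the bases before them may not be promoter. GTAAACA was found in 4 of 16, and in 16.5% of all 5110 promoters, so that nothing is read from its presence in the named genes. A site in each of the other genes is shown with 9 bases to either side, on the strand of the gene, with the motif or its reverse complement in capitals.
*agn2*: acttgcattTGTTTACattttaata
*chs1*: ttttcttttGTAAACAttaatcttc
*css1*: ctactccaaTGTTTACagatttacc
The runs lie upstream of the start in *agn2* and *css1* and past it in *chs1*. GAANNTTC, the core repeat of heat shock elements, was in 4 of 16 (*ckb2*, *mis20*, *css1* and *itt1*) and in 11.1% of all. TATAAA was in 10 of 16 and in 48.1% of all, CCAAT in 8 of 16 and in 42.3% of all, and GTAAATA in 2 of 16 and in 16.2% of all. CCCCT was in 1 of 16, the shared promoter, and in 10.5% of all. The letters of the full CRE (TGACGTCA), the TR box core (TTCTTTGTT), the Rst2 motif (CCCCTC), the E box (CACGTG) and both forms of the Pho7 motif were in 0 of 16, and in 0.274% to 2.11% of all promoters. Found in 1 of 16 each were the letters TGACGT of the shorter CRE (5.91% of all promoters), ACGCGT of the MCB box (3.25%), AACCCT of the histone box (9.73%), CAGTCACA of HomolD (2.68%) and GATAAG of the GATA factors (11.6%). A match is a run of letters and not a known site, and the forms overlap, as TGACGT does with TGACGTCA and CCCCT with CCCCTC.

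No 2 of the 18 genes were neighbours. Of 34 adjoining protein-coding genes with values, 0 were among the 18, and 3 were at least 2 times 0 h at 24, 36 and 48 h with means of at least 100, or 8.82%, against the background of 14.3%. These were *xpa1* beside SPBC336.16, *kgd2* beside *mis20* and *rec10* beside *zip1*. On the opposite strand, 9 of 18 genes overlapped another listed gene, against 52.5% of all protein-coding genes, and in 3 of 18 the overlap covered at least 50% of the gene (*itt1*, *dpm1* and SPCC23B6.02c), or 16.7%, against 20.9% of all protein-coding genes. A further 5 genes overlapped only annotated non-coding RNAs whose levels were not analysed here. The transcript models of *zip1* and *rec10*, a meiotic recombination gene, overlap by 36 bases at their ends, and *rec10* went from 273 at 0 h to 2523 at 48 h, while *zip1* counted 8999 and 32057 at those times. *rna4*, which overlaps *isu1* by 89 bases, was level at 1293 at 0 h and 1285 at 48 h. SPNCRNA.1183, opposite SPCC23B6.02c, was at 56.6 at 0 h and 48.7 at 48 h, while *prl42*, opposite SPBC337.02c, went from 108 to 264.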

How the data were processed

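The 21 samples were grouped by the time in their labels, 3 per time. The submitters' notes name HISAT2 2.1.0 for mapping to ASM294v2, SAMtools, HTSeq 0.10.0 for counting and DESeq2 for comparing times. The libraries were strand-specific. The strand setting of the counting and the treatment of reads with several matches are not given in the sources used here. The authors deposited 6 tables whose signal columns are mean normalised counts, that is counts divided by size factors and averaged over the replicates of a time. The other 6 columns of each table hold the authors' own comparisons with 0 h (overall mean, log2 fold change, its error, test statistic, p-value and adjusted p-value) and were not used. Values of single libraries were not given as columns, so no test per gene was made and ratios of means are described.

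The 18 genes, the lists, the motifs and the partner genes were chosen with earlier results of these data known. Every gene of the 18 may be named, with all values for those with the largest late ratios, the highest 48 h means or a shared list. Names, products, overlaps and sequences came from RefSeq assembly ASM294v3, to which 6836 IDs matched by locus tag, 12 by synonym and 140 not. As this is not the authors' build, no coordinate is given. Whole reads behind a mean were sought from the size factors of its 3 libraries. All 947 means below 2 were such sums, and means of 100 to 200 gave 1 set of reads each, but 10 of 60 sampled genes with all means of at least 10 gave 1 set at all 7 times (means of 1000 or more were not split), too few for a model across genes. The rule and the splitting were tested on simulated data. Scripts used Python 3.11.15, numpy 2.4.6, pandas 2.3.3 and matplotlib 3.10.9. A promoter motif and a motif site that were also searched are not reported here.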

Additional observations from a re-analysis of the deposited data

How the results depend on the processing

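The number of genes depended on the limits. It was 8 with an early limit of 25% above 0 h and 98 with a limit of 2 times 0 h. With a late limit of 1.5 it was 112 and with 3 it was 4, and with 24 h left out it was 35. It was 18 with a minimum mean of 50 and 72 with no minimum mean. Without a minimum, a gene whose means are 0 at these times also passes, and how many of the 72 are such genes was not counted. With each time recentred on the median protein-coding gene it was 22, of which 14 were among the 18. Genes at least 2 times 0 h at 12 h numbered 5 after recentring and 12 with a fold of 1.5. The median log2 ratio at 12 h was 0.65 with a pseudocount of 10, 0.81 after recentring and 0.65 without the 3 genes with shared sequence. With a fold of 2, 1 gene was higher at 48 h than at 24 h. The rule without 24 h and the counts without those genes were added after the data were seen. No paired analysis was possible because the columns hold means over replicates and carry no replicate number. For the same reason the planned fits across libraries, with their offset, filter and left-out replicates, were not run. The spread between replicates was not assessed for most of the 18 genes, as the authors' errors of their fold changes were not used.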
